A study of Sus scrofa with 7 samples.

Results

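Porcine embryonic stem cells (ESCs) in 2 states of pluripotency, primed and naïve-like, were compared across all genes of the RNA-seq tables. The members were chosen by their labels alone: 2 primed lines and 2 naïve-like lines, which are 4 of the 7 libraries of the series. The other 3 libraries came from porcine extra-embryonic endoderm (pXEN) lines and entered the fit for the estimate of the spread between lines. The tables list 29510 genes, and 17447 passed the filter on low counts and were tested.

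The naïve-like lines, at passages 21 and 22, were derived from the inner cell mass. They grew on mouse embryonic fibroblasts in a serum-replacement and N2B27 medium with FGF, human LIF, the MEK inhibitor PD0325901, the GSK3 inhibitor CHIR99021, the TGFβ receptor inhibitor SB431542 and doxycycline. The primed lines, both at passage 20, grew on STO feeder cells, a mouse fibroblast line, in α-MEM with serum replacement, activin A, basic FGF, EGF and human LIF, and without those inhibitors. The pXEN lines, at passages 26, 26 and 23, came from parthenogenetic blastocysts and grew in a medium with LIF, CHIR99021, dimethindene maleate and minocycline. The labels give the primed cells as converted from naïve-like cells, whereas the study describes primed lines derived earlier. Each line gave 1 library, so state, medium, feeder and origin of the lines cannot be told apart, and p values measure the spread between single libraries of different lines.

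Naïve and primed pluripotency are the states of the epiblast before and after implantation. In mouse and human cells, naïve lines are held by blocking MEK and GSK3 and express KLF4, ESRRB and TFCP2L1, while primed lines depend on FGF and activin and express OTX2, ZIC2 and DNMT3B. WNT ligands bind Frizzled and LRP receptors and stop GSK3 from degrading β-catenin, and FGF receptors signal through RAS, MEK and ERK to genes of the SPRY, DUSP and ETV families.

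The tables assign 10408164 to 12995720 reads to genes in a library, so that 3 counts, the floor of detection used here, equal 0.231 to 0.288 CPM, the count scaled to library size. The measure of likeness was the share of tested genes, with at least 1 CPM in both libraries compared, that lay more than 2-fold apart. It was 4.33% between the naïve-like lines and 2.45% between the primed lines, so both pairs were closely alike. Of the pXEN lines, line 2 stood apart from lines 1 and 3, with 8.19% and 9.15%, against 2.51% between those, and without it 7566 genes were called in the comparison below. Between naïve-like line 1 and primed line 1 the same measure was 21.8%, which leaves out genes under 1 CPM in either line. Levels of genes are given as FPKM, the authors' fragments per kilobase of gene, scaled to library size, for lines 1 and 2 of a type in that order. Fold changes are primed against naïve-like, on the log2 scale, and adjusted p values are those of the quasi-likelihood test in edgeR, corrected by the Benjamini-Hochberg method over all genes tested.

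Between the types 5621 genes differed, which is 32.2% of the genes tested. In primed ESCs 3308 genes were higher, 19.0% of the genes tested, and 2313 were lower, 13.3%. The larger differences lay mostly on the primed side. At least 4-fold apart were 2363 called genes, 13.5% of the genes tested, of which 1720 were higher and 643 lower in primed ESCs. At least 8-fold apart were 1263 higher and 342 lower genes. These counts rest on fitted folds, which are no measured sizes for genes at 3 or fewer counts in 1 type. With a minimum of 10 counts in every ESC line, 810 called genes were at least 4-fold apart. The median log2 fold change of all genes was 0.01. The lines of the 2 types did not overlap in any called gene, but they also did not overlap in 72.5% of all genes tested. The count without naïve-like line 1 or 2 was 3164 or 3712, and without primed line 1 or 2 it was 2965 or 2979, since the remaining line of that type then has no partner and is assumed to vary like the other groups.

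**Figure D1:**
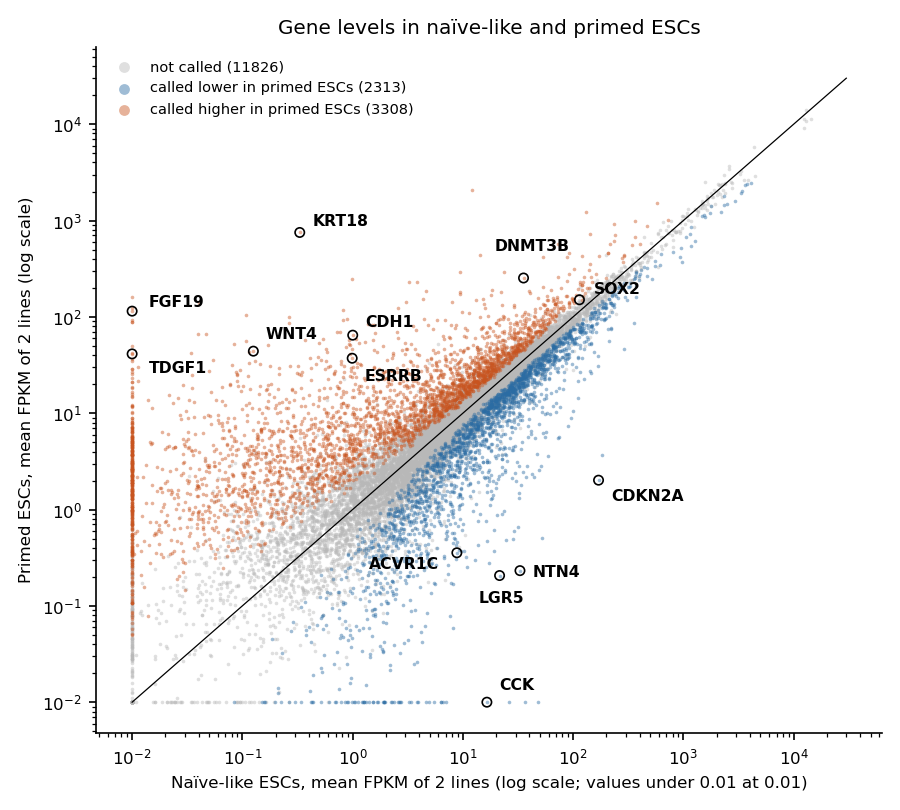
Mean FPKM of each gene tested in the 2 naïve-like lines (horizontal axis) and the 2 primed lines (vertical axis), both on log scales, with called genes in colour and 13 genes of the text named. The column of points on the left edge, at 0.01 FPKM, holds the genes read in primed but not in naïve-like ESCs, and it is denser than the row along the bottom.

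More genes were near absence in naïve-like than in primed ESCs. In naïve-like ESCs 752 called genes had 3 or fewer counts in both lines, and 346 of them had none. In primed ESCs 164 called genes had 3 or fewer counts in both lines, and 58 of them had none. Among the called genes with a symbol near absence in naïve-like lines, those with the highest counts in primed lines included KRT19, UTF1, IGFBP6, CLDN4, ESRP1, PRPH and NKX1-2. KRT19, a keratin of simple epithelia, had no counts in either naïve-like line and 2644 and 3261 counts in primed lines, at least 887-fold higher (adjusted p = 6.60e-05). NKX1-2, a homeobox gene of the early neural plate and tail bud, had 0 counts against 1062 and 1141 counts, at least 332-fold higher (adjusted p = 2.86e-05). For UTF1, a chromatin factor of pluripotent cells, there were 0 and 1 counts against 1828 and 2043, a ratio of 3499 with a 95% counting interval of 628 to 138200. ESRP1, a splicing regulator of epithelial cells, had 0 and 1 counts against 1460 and 1493 counts. These intervals and floors cover counting error only. The size of a ratio over 3 or fewer counts per line is uncertain. Here and below, the lower end of its interval is therefore its bound.

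Among the called genes with a symbol near absence in primed lines, the highest in naïve-like lines were a 7SK small nuclear RNA entry, SLC1A3, CCK, CRB1, SYT6, ZFPM2, KCNA4 and FRMPD2. CCK, the peptide hormone and neuropeptide cholecystokinin, had 136 and 130 counts in naïve-like lines and none in primed lines, at least 49.0-fold lower in primed ESCs (adjusted p = 0.00111). KCNA4, a voltage-gated potassium channel, had 86 and 93 counts against none, at least 33.0-fold lower (adjusted p = 0.00186). SLC1A3, a glutamate transporter of glia on chromosome 16, had 171 and 177 counts against 1 and 3. CRB1, an apical polarity protein of the retina and brain, had 108 counts in each naïve-like line against 3 and 0. The 7SK entry had 253 and 126 counts against none, but 7SK has many near-identical copies, among which the counting may split reads, so that its change is uncertain. CCK stood at 16.6 and 16.4 FPKM in naïve-like lines and KRT19 at 149 and 172 FPKM in primed lines. ZFPM2 was not called without either primed line.

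The 10 largest increases among well-read genes with a symbol and more than 3 counts in every ESC line were those of DSP, DF, KRT8, AHNAK, FBLN1, COL4A2, TFAP2C, DDR2, OLFM1 and KIF1A. DSP encodes desmoplakin, which ties keratin filaments to desmosomes. It had 0.0343 and 0.0356 FPKM in naïve-like lines and 20.2 and 16.6 FPKM in primed lines, a log2 fold change of 8.98 ± 0.22 (SE, adjusted p = 9.27e-07). DF, listed under the current symbol CFD and encoding complement factor D, had 1.11 and 0.861 FPKM against 235 and 256 FPKM (7.93 ± 0.29, adjusted p = 4.80e-06). KRT8, the keratin partner of KRT18, had 5.30 and 18.8 FPKM against 1892 and 2239 FPKM (7.41 ± 0.58, adjusted p = 8.85e-05). AHNAK, a large scaffold protein under the plasma membrane, rose by 6.83, and FBLN1, an extracellular matrix glycoprotein, by 6.72. KIF1A and OLFM1, a motor of axonal transport and a secreted glycoprotein of neurons, rose by 6.13 and 6.19 and were below 1.3 FPKM in every pXEN line. DF and TFAP2C were also lower in pXEN than in primed lines. DSP, KRT8, AHNAK, FBLN1, COL4A2 and DDR2 were higher in every pXEN line than in either primed line, KRT8 at 6963 to 9098 FPKM.

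The 10 largest decreases by the same rule were those of NTN4, CALB2, TXNIP, MGAT5B, LIMCH1, SGTB, GPX3, PAF-AH (current symbol PLA2G7), GYG1 and TSPAN7. The rule averages reads over all 7 libraries. PAF-AH met it through 1784 to 3050 counts in pXEN lines, with 197 and 64 counts in naïve-like and 17 and 8 in primed lines. NTN4, a netrin of basement membranes, had 32.2 and 33.7 FPKM in naïve-like lines and 0.146 and 0.318 FPKM in primed lines (−7.13 ± 0.34 on the log2 scale, adjusted p = 1.02e-05). CALB2, the neuronal calcium buffer calretinin, had 267 and 94.9 FPKM against 2.91 and 4.37 FPKM (−5.64 ± 0.51, adjusted p = 0.000186). The naïve-like lines differed from each other in CALB2 by more than in most genes, but neither came near a primed line. TXNIP, an inhibitor of thioredoxin and of glucose uptake, fell by 4.99 and GYG1, the primer of glycogen synthesis, by 3.45. GPX3, an extracellular glutathione peroxidase, and SGTB, a cochaperone, lie on chromosome 16, whose genes were lower in primed ESCs as a group, as described further on. Whether the counting used strand is not given in the sources used here, and SGTB (with NLN), TSPAN7, NR5A2, SOX3, USP44, DAB2 (with C9), KRT18, S100A4 (with S100A3), CLDN6 (with TNFRSF12A), SLC2A1 (with ERMAP), GAPDH (with PIANP), MT-ND2, NDUFB9, CDK6, ITGA4, AHNAK, DSP and SLC1A3 (both with U6) overlap other entries, so their values may hold reads of those. PAF-AH was not called without primed line 2.

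The labels were next checked against genes of pluripotency. SOX2, a core pluripotency factor also used in neural progenitors, had 102 and 126 FPKM in naïve-like lines and 147 and 154 FPKM in primed lines, and was not called (log2 fold change 0.39, adjusted p = 0.64). SALL4, a zinc finger factor of ESCs, was not called either (33.8 and 37.7 against 39.8 and 39.6 FPKM). Of the 11 tested genes of the pluripotency list, 6 rose in primed ESCs and 1 fell, and the median log2 fold change was 1.28. LIN28A, an RNA-binding protein that blocks let-7 maturation, rose from 121 and 118 FPKM to 402 and 451 FPKM (1.82, adjusted p = 4.67e-05). PODXL, a sialomucin that carries stem cell surface epitopes, rose from 20.0 and 24.6 to 179 and 182 FPKM (3.00, adjusted p = 1.02e-05). NANOG was low throughout, at 0 and 0.148 FPKM against 1.44 and 1.41 FPKM, with 3 or fewer counts in each naïve-like line. The entry of POU5F1 (OCT4) held 0 and 2 counts in naïve-like and 5 and 3 in primed lines, and ZFP42 and DPPA4 held none, so these 3 genes were not tested. The study reported OCT4, SOX2 and NANOG protein in naïve-like ESCs, and OCT4 and SOX2 protein in primed ESCs. Near-empty entries here are thus no evidence that the cells lack these factors. Whether annotation or mapping of the genome build lowered the counts was not tested. TERT, the catalytic subunit of telomerase, was the member that was lower (−0.61, adjusted p = 0.0475), and it lies on chromosome 16. Without pXEN line 2 SOX2 was called higher (0.39). The call of TERT was lost with any 1 of the 4 ESC lines left out, and that of NANOG without naïve-like line 1 or either primed line.

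Factors that mark the naïve state in mouse or human were not higher as a group in the naïve-like lines. Of 18 tested, 9 were higher in primed ESCs, 3 were lower and 6 were not called, with a median of 1.87, or 1.05 with absent genes set at their bound. ESRRB, an orphan nuclear receptor of the mouse naïve network, had 1.18 and 0.801 FPKM in naïve-like lines and 36.6 and 37.7 FPKM in primed lines (5.21, adjusted p = 7.67e-05). TFAP2C, which opens naïve enhancers in human cells and also marks trophectoderm and germ cells, had 0.460 and 0.505 FPKM against 40.4 and 37.0 FPKM (6.30, adjusted p = 1.81e-05). ALPL, the alkaline phosphatase used to stain pluripotent colonies, had 2.62 and 6.05 FPKM against 154 and 152 FPKM (5.13, adjusted p = 4.19e-05). NR5A2, a nuclear receptor, was absent from naïve-like lines and had 2.96 and 2.08 FPKM in primed lines, at least 37.1-fold higher. TFCP2L1, PRDM14, KLF17 and FGF4 had too few counts to be tested, with 5 or fewer in every ESC line. The 3 members that were lower in primed ESCs were KLF5 (4.68 and 5.62 against 0.592 and 0.554 FPKM, −3.15), BCL3 (7.49 and 4.33 against 1.03 and 0.805 FPKM, −2.70) and KLF4 (0.922 and 1.20 against 0.345 and 0.369 FPKM, −1.57, adjusted p = 0.0471). All 3 stood at a few FPKM at most in naïve-like lines. KLF4, KLF5 and BCL3 were thus on the side of the naïve label, and ESRRB, TFAP2C, NR5A2 and ALPL went against it, so naïve-like stands below for the label and not for a state read from these genes. KLF4 was not called when any 1 of the 4 ESC lines was left out.

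Of 30 tested genes of the primed and formative states, 11 were higher and 4 lower in primed ESCs, with a median of 0.64, and the lower share was that of all genes (13.3%). OTX2, a homeobox factor that drives the exit from the naïve state, had 9.12 and 4.35 FPKM against 69.5 and 47.0 FPKM (3.10, adjusted p = 0.00101). DNMT3B, a de novo DNA methyltransferase, had 32.1 and 38.8 FPKM against 264 and 242 FPKM (2.82, adjusted p = 0.000534). VCAN, a matrix proteoglycan, had 2.77 and 4.71 FPKM against 72.1 and 72.2 FPKM (4.26). ZIC2, a zinc finger factor of primed epiblast, was not called and was present in both types, at 57.9 and 44.9 against 70.2 and 64.2 FPKM. CDH2 and SFRP2 were not called either, but ZIC2 (0.38) and SFRP2 (0.90) were called higher without pXEN line 2. SALL3, SOX3, USP44 and TCF7L1 were lower in primed ESCs, SALL3 by the most (10.6 and 10.7 against 0.399 and 0.249 FPKM, −5.05). SOX3 was not called without naïve-like line 2 or either primed line, and TCF7L1 without naïve-like line 1 or either primed line. Of 11 tested enzymes and readers of DNA methylation, DNMT3A (1.33) and DNMT3B rose and 9 were not called, among them DNMT1 (79.4 and 80.5 against 78.5 and 79.0 FPKM) and TET1. The share called, 18.2%, was under the 32.2% of all genes.

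Most epithelial transcripts tested were lower in naïve-like lines. Of 22 epithelial genes tested, 16 were higher in primed ESCs and none was lower, with a median of 2.90, or 2.47 with absent genes at their bound. CDH1 (E-cadherin), which joins ESCs and other epithelial cells, had 0.798 and 1.21 FPKM in naïve-like lines and 66.4 and 62.6 FPKM in primed lines (5.99, adjusted p = 4.35e-06). EPCAM, an adhesion protein of the same cells, had 0.749 and 0.363 FPKM against 29.3 and 28.6 FPKM (5.67, adjusted p = 4.87e-06). CLDN4, a tight junction claudin, had 1 count in each naïve-like line and 1368 and 1763 counts in primed lines, a ratio of 1415 with a 95% counting interval of 391 to 11690. OCLN, occludin, had 0.0979 and 0.0254 FPKM against 9.27 and 6.47 FPKM (6.90), against the direction of chromosome 16, on which it lies. CLDN6, TJP1 and PKP2 were read in both types and rose by 2.22, 1.15 and 2.55.

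Mesenchymal genes did not mirror this. Of 22 tested, 8 were higher and 3 lower in primed ESCs, with a median of 0.38, beside 19.0% and 13.3% of all genes. CDH2 (N-cadherin) had 97.4 and 123 FPKM in naïve-like lines and 109 and 96.6 FPKM in primed lines, and VIM (vimentin) 684 and 771 against 837 and 920 FPKM, neither of which was called. ZEB1, a repressor of CDH1, was not called (9.76 and 11.7 against 9.67 and 9.71 FPKM), while its paralog ZEB2 fell from 8.89 and 12.1 to 2.93 and 3.13 FPKM (−1.80, adjusted p = 0.00282). FN1, fibronectin, had 133 and 204 FPKM against 29.6 and 31.4 FPKM (−2.48, adjusted p = 0.000118), and CDH11 fell by 1.24. Genes of the contractile and matrix-binding machinery were among those that rose, such as MYL9 (3.72), TPM1 (2.13), ITGA5 (3.73) and LGALS1 (2.65). The primed lines thus held E-cadherin and N-cadherin transcripts together, the naïve-like lines N-cadherin with little E-cadherin.

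**Figure D2:**
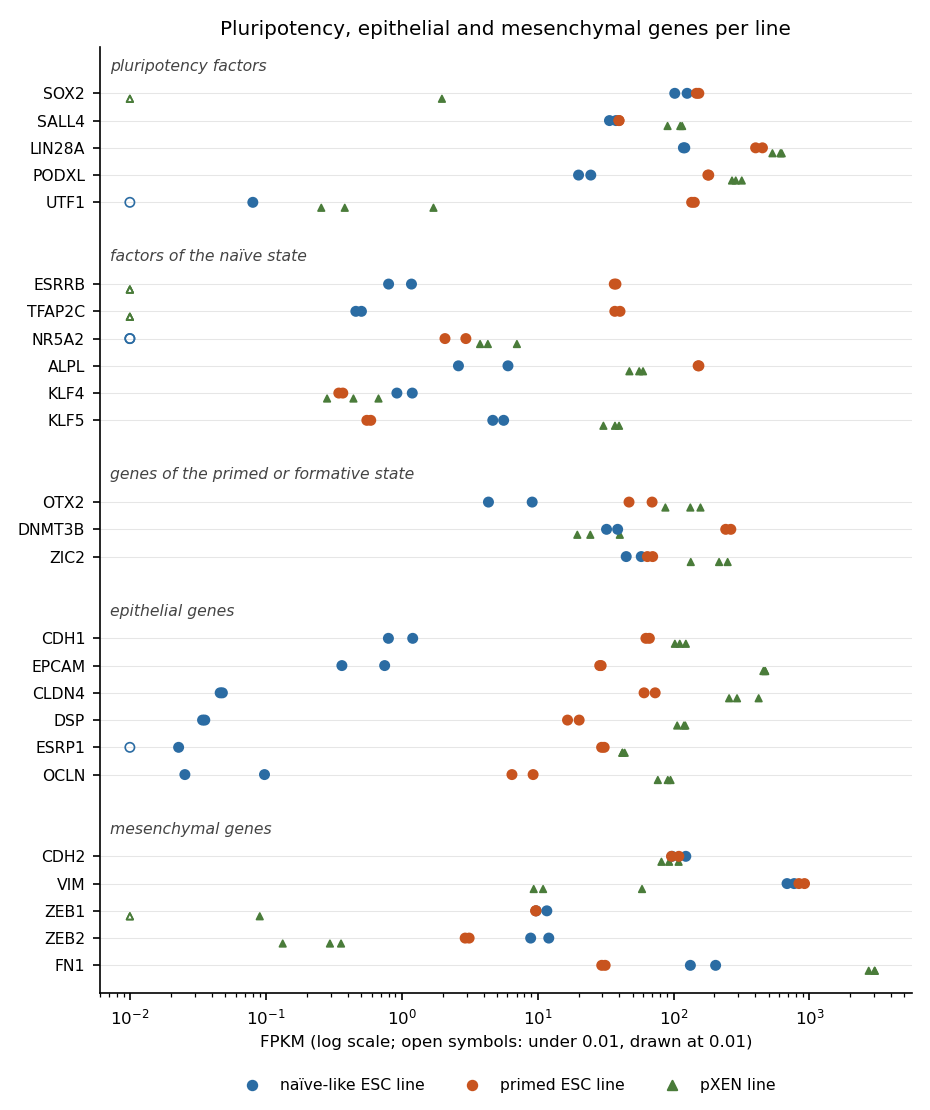
FPKM of 25 genes in each line, on a log scale; blue and orange circles are naïve-like and primed ESC lines, green triangles pXEN lines, and open symbols values under 0.01. SOX2, ZIC2, CDH2, VIM and ZEB1 lie close together in the 4 ESC lines, while ESRRB, TFAP2C, UTF1 and all 6 epithelial genes lie far to the left in naïve-like lines.

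Of the cell surface genes, 23 of 35 tested were higher and 3 lower in primed ESCs (median 1.55). CD55, which shields cells from complement, had 0 and 3 counts in naïve-like lines against 682 and 579, a ratio of 380 (95% counting interval 130 to 1845). KIT, the receptor of stem cell factor, rose from 0.0763 and 0.258 to 8.62 and 7.11 FPKM (5.54, adjusted p = 4.54e-05). COL4A1 and COL4A2, which form the collagen of basement membranes, had 1.32 and 0.824 against 57.7 and 60.4 FPKM (5.77) and 0.806 and 0.734 against 69.5 and 69.3 FPKM (6.48). Besides FN1, the integrin chains ITGA2 and ITGA4 were lower (−1.37 and −1.26), and ITGA2 lies on chromosome 16. ITGA2 was not called without naïve-like line 2 or either primed line, and ITGA4 without naïve-like line 1 or primed line 1.

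The compounds of the naïve-like medium act on GSK3, MEK and the TGFβ receptors, and the genes of the matching pathways were compared by role. Of the 15 WNT ligands tested, 13 rose in primed ESCs, 1 fell and 1 was not called. Their median log2 fold change was 7.80, or 5.19 with absent ligands at their bound, beside 0.01 over all genes. WNT4, which signals mostly without β-catenin in many tissues, had 0.174 and 0.0775 FPKM in naïve-like lines and 51.0 and 37.0 FPKM in primed lines (8.39 ± 0.44, adjusted p = 1.58e-05), and at most 0.110 FPKM in the pXEN lines. WNT10B had 0.201 and 0.139 FPKM against 56.9 and 44.4 FPKM, a ratio of 293 (95% counting interval 125.5 to 905). WNT3A, a strong activator of β-catenin, had 0 and 2 counts against 451 and 413 counts, a ratio of 391 (95% counting interval 108 to 3230). WNT7B had 0 and 2 counts against 675 and 534 counts. WNT5B, absent from both naïve-like lines, had 42.2 and 27.4 FPKM in primed lines, at least 63.2-fold higher (adjusted p = 0.0002). WNT8B and WNT16 had 39.5 and 26.9 FPKM and 21.0 and 18.0 FPKM in primed lines, against 0.996 and 1.21 FPKM and 0.0756 and 0.0785 FPKM. WNT7A, in contrast to its paralog WNT7B, was lower in primed ESCs (5.18 and 8.86 against 0.622 and 1.80 FPKM, −2.54, adjusted p = 0.0473), a call that was lost with any 1 of the 4 ESC lines left out.

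Of 13 WNT receptors tested, 5 were higher and 2 lower in primed ESCs, with a median of 0.78. FZD6 (3.96) and the coreceptor LRP5 (3.10) rose the most, from 0.492 and 0.425 to 6.95 and 7.54 FPKM and from 0.909 and 1.79 to 11.7 FPKM in both primed lines. FZD2 and FZD7 were not called, and FZD4 and FZD5 fell by 1.08 and 1.41. Of 12 secreted modulators, 8 were higher and 1 was lower. They included inhibitors as well as enhancers: DKK1, an LRP antagonist, was at least 22.8-fold higher, SFRP1, a ligand trap, rose by 4.72, and RSPO3, which enhances WNT signals, was at least 68.5-fold higher. FRZB, another ligand trap, fell by 2.06. Without naïve-like line 1 or primed line 1 FRZB was not called, FZD5 was called only without primed line 1, FZD4 was not called without primed line 1, and 5 modulators were higher with any 1 of the 4 ESC lines left out. The higher receptors numbered 3 without naïve-like line 1 or either primed line and 8 without pXEN line 2, when FZD2 and FZD7 were called. WLS, which carries WNT ligands to the cell surface, had 51.3 and 48.4 FPKM against 124 and 122 FPKM (1.29, adjusted p = 8.88e-05).

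Of 13 transducers, 1 was higher and 3 were lower, a share close to the 32.2% of all genes that were called. CTNNB1 (β-catenin) had 305 FPKM in both naïve-like lines and 255 and 275 FPKM in primed lines and was not called, and neither were GSK3A, GSK3B and AXIN1. No transducer was higher without naïve-like line 1 or either primed line, and the lower ones numbered 2 without either naïve-like line, 1 without either primed line and 7 without pXEN line 2, CTNNB1 (−0.22) among them. Among 11 target genes of β-catenin, 9 were higher in primed ESCs, 1 was lower and 1 was not called, with a median of 2.89. AXIN2, a feedback inhibitor read as the general target of the pathway, had 2.31 and 4.37 FPKM against 29.1 and 22.4 FPKM (2.93, adjusted p = 0.00734). TCF7 had 0.107 and 0.424 FPKM against 14.3 and 12.0 FPKM (5.61, adjusted p = 5.34e-05). RNF43, a ligase that removes Frizzled receptors, had 0.174 and 0.380 FPKM against 5.95 and 5.59 FPKM (4.36). LEF1 was not called (5.45 and 8.56 against 13.6 and 12.6 FPKM) but was called higher without pXEN line 2 (0.89). LGR5, a receptor of R-spondins, went the other way, with 22.5 and 20.6 FPKM in naïve-like lines and 0.184 and 0.229 FPKM in primed lines (−6.66, adjusted p = 2.60e-05). The lines grown with the GSK3 inhibitor thus held less AXIN2, TCF7 and RNF43 transcript and more LGR5. Without naïve-like line 1 AXIN2 was not called and 3 targets were higher, and without naïve-like line 2 or either primed line 5 were higher.

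Genes of the FGF and ERK pathway were next described from its targets back to its ligands. Of 28 ERK target and feedback genes tested, 18 were higher in primed ESCs and none was lower, with a median of 1.46. SPRY4, a feedback inhibitor of receptor tyrosine kinases, had no counts in naïve-like lines and 91.3 and 91.9 FPKM in primed lines, at least 324-fold higher (adjusted p = 1.02e-05). DUSP6, a phosphatase of ERK, had 0.172 and 0.983 FPKM against 42.9 and 49.4 FPKM (6.29, adjusted p = 9.12e-05). ETV4 and ETV5, ETS factors induced by FGF, had 0.248 and 0.110 against 36.0 and 25.5 FPKM (7.36) and 0.875 and 0.789 against 25.7 and 28.2 FPKM (adjusted p = 0.000433). SPRY2 and DUSP4 rose from levels of 5 to 10 FPKM, by 3.25 and 3.78. The immediate early genes EGR1, FOS and JUNB did not follow, with log2 fold changes of −0.23, −2.58 and −1.69 that were not called. EGR1 overlapped between the types, at 10.5 and 28.2 against 19.9 and 13.6 FPKM. Without naïve-like line 1, 11 of the target genes were called higher, and without pXEN line 2 FOS and JUNB were called lower, at −2.58 and −1.69.

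Of 10 FGF and related ligands tested, 3 rose in primed ESCs and 1 fell, and of 9 receptors and coreceptors 5 were higher and none was lower. The shares of all genes were 19.0% higher and 13.3% lower. Without naïve-like line 2 or primed line 1 the higher ligands numbered 2, while the higher receptors numbered 5 whichever ESC line was left out. The lower ligands numbered 0 without naïve-like line 1 or primed line 1 and 2 without pXEN line 2, and without pXEN line 2 KLB was called lower (−1.01). FGF19, an endocrine FGF that signals through FGFR4 and the coreceptor KLB, had no counts in the naïve-like or pXEN lines and 818 and 1176 counts in primed lines, which is 97.7 and 132 FPKM and at least 299-fold higher (adjusted p = 0.000153). FGFR4 rose from 0.321 and 0.384 to 13.3 and 15.2 FPKM (5.31 ± 0.20, adjusted p = 4.87e-06), while KLB was at 5.29 and 3.71 against 1.73 and 2.76 FPKM and was not called. FGF2 was not called (21.8 and 17.0 against 17.1 and 15.5 FPKM), and neither was FGFR1 (68.8 and 67.8 against 72.6 and 77.5 FPKM). Of the EGF receptor family, EGFR rose by 1.77, ERBB2 by 2.20 and ERBB3 from 2 and 0 counts to 713 and 832 counts, although ERBB3 overlaps ANKRD52 on the same strand. Of 13 transducers between the receptors and ERK, 3 were higher and 1 was lower, a share close to the 32.2% of all genes that were called. With any 1 of the 4 ESC lines left out 1 transducer was higher and none was lower.

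**Figure D3:**
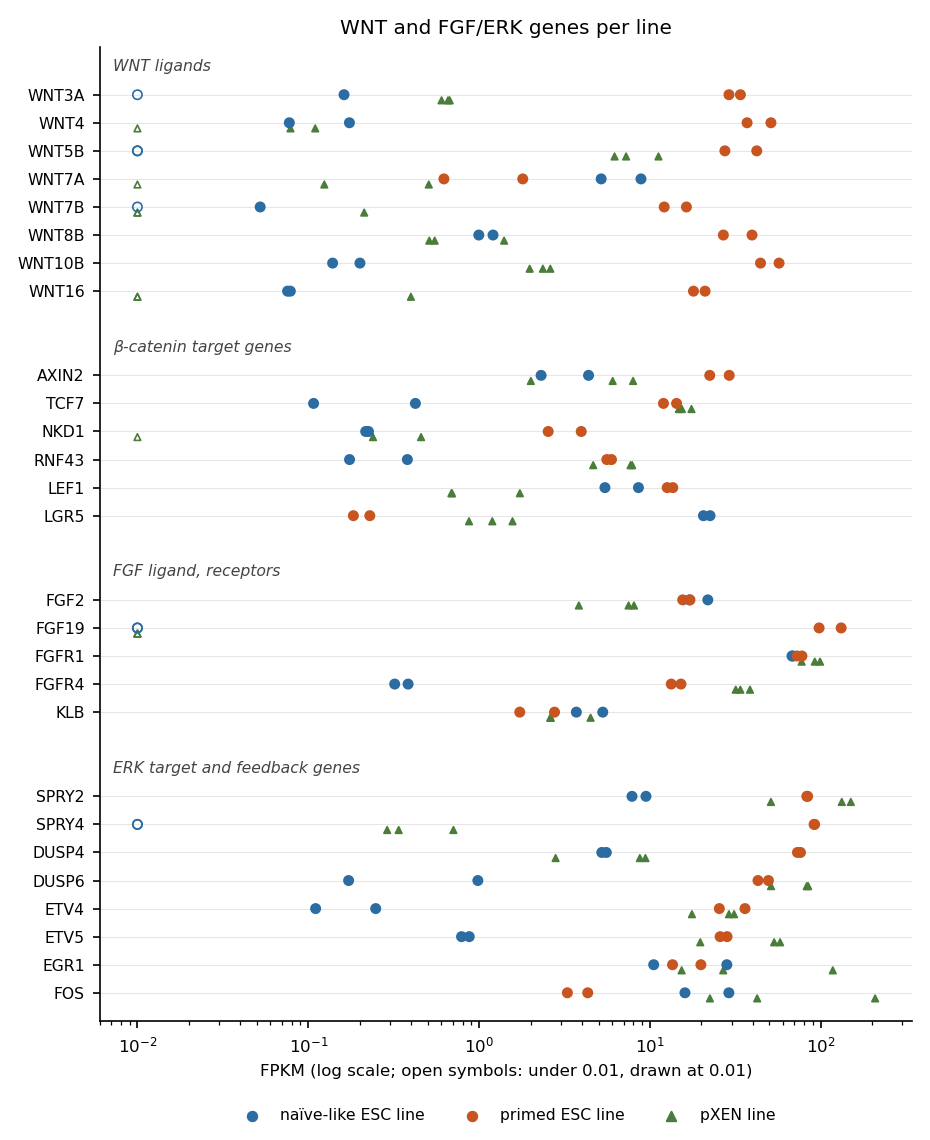
FPKM of 27 WNT and FGF/ERK genes in each line, on a log scale; blue and orange circles are naïve-like and primed ESC lines, green triangles pXEN lines, and open symbols values under 0.01. WNT ligands other than WNT7A and the SPRY, DUSP and ETV genes lie to the right in primed lines, LGR5 and WNT7A in naïve-like lines, and FGF2, FGFR1 and EGR1 lie together.

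Of 34 tested genes of the Nodal, activin and TGFβ pathway, 10 were higher and 5 lower in primed ESCs, with a median of 0.53, beside 19.0% and 13.3% of all genes, and without naïve-like line 1 or either primed line 5 were called higher, and without pXEN line 2 the number was 18. TDGF1 (CRIPTO), the coreceptor of Nodal, had no counts in naïve-like lines and 41.0 and 41.4 FPKM in primed lines, at least 88.5-fold higher (adjusted p = 3.55e-05). ACVR1C (ALK7), a type I receptor of Nodal, was lower in primed ESCs, from 9.04 and 8.59 to 0.233 and 0.479 FPKM (−4.61 ± 0.48, adjusted p = 0.00117). ACVR2A and FOXH1, a type II receptor and the DNA-binding partner of SMAD2, fell by 1.92 and 2.05, FOXH1 from 83.9 and 66.2 to 18.1 and 18.4 FPKM. ACVR1B, the receptor of activin, was not called (10.8 and 10.3 against 10.3 and 8.83 FPKM). Of the 11 targets tested, 2 were higher and none was lower (7 higher without pXEN line 2, 4 without naïve-like line 2 and 0 without another ESC line), and SKIL (6.27 and 9.20 against 10.8 and 11.1 FPKM) was not called but was called higher without naïve-like line 2 or pXEN line 2. LEFTY2 had too few counts to be tested.

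In the BMP pathway, 12 of 21 genes tested were higher and 2 lower in primed ESCs (median 0.82), with 1 lower without either naïve-like line or primed line 2. BMP7 had 0 and 1 counts against 1170 and 982 counts, a ratio of 1945 (95% counting interval 349 to 76870). GREM1, a secreted BMP antagonist, was absent from naïve-like lines and had 21.4 and 21.0 FPKM in primed lines, at least 46.2-fold higher, while another antagonist, CHRD, fell from 20.8 and 14.8 to 4.31 and 3.88 FPKM (−2.13, adjusted p = 0.000671). The direct BMP targets ID1 and ID2 rose from 52.3 and 54.5 to 210 and 202 FPKM (1.93, adjusted p = 0.000151) and from 7.93 and 12.0 to 44.0 and 45.1 FPKM (2.15).

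LIF was in the medium of both types. Of 17 genes of the LIF and STAT3 pathway tested, 5 were higher and 4 lower in primed ESCs, and without primed line 2 the count higher was 3, and without naïve-like line 1 or either primed line the count lower was 2. Among all genes tested, 19.0% were higher and 13.3% lower. STAT3 had 42.2 and 44.3 FPKM in naïve-like lines and 13.7 FPKM in both primed lines (−1.68, adjusted p = 0.000177), and JAK1, the kinase upstream of it, fell by 1.61. SOCS3, a feedback target of STAT3, overlapped between the types (9.27 and 6.12 against 3.08 and 6.37 FPKM). PIM1, another target, rose from 1.76 and 1.34 to 28.4 and 32.4 FPKM (4.28, adjusted p = 8.08e-06). Of the receptors, CNTFR rose from 9.37 and 16.9 to 147 and 153 FPKM (3.50), IL6ST (gp130) rose by 0.86 and OSMR fell by 1.06. LIFR was not called but was called higher without pXEN line 2 (0.54), and LIFR, IL6ST and OSMR lie on chromosome 16. JAK1, IL6ST and OSMR were not called without naïve-like line 1 or either primed line, and OSMR was not called in the 4 ESC libraries alone (edgeR adjusted p = 0.061), with the replicate block or with limma.

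Transcripts of differentiated lineages were read in both types. Of 32 neural genes tested, 6 were higher and 10 lower in primed ESCs (median −0.48), beside 19.0% and 13.3% of all genes. TUBB3, a neuronal tubulin, had 192 and 249 FPKM in naïve-like lines and 88.4 and 65.3 FPKM in primed lines (−1.53, adjusted p = 0.0173), and POU3F3 and IRX3 fell by 2.04 and 1.73. FABP7, a fatty acid binding protein of neural progenitors, fell by 2.13. PAX6 (0.527 and 0.643 against 7.30 and 4.80 FPKM, 3.35), ZIC1 (33.5 and 14.0 against 113 and 87.5 FPKM, 2.06), STMN2 (2.25) and NCAM1 (2.21) rose. Without naïve-like line 2 or primed line 1 or 2, 5, 5 and 4 of the neural genes were lower, and 10 were higher without naïve-like line 2 or pXEN line 2. Of 12 tested genes of the primitive streak and mesoderm 2 were higher and 1 was lower (2 without pXEN line 2, and none in either direction with a minimum of 10 counts), under the shares of all genes (19.0% and 13.3%): EVX1, absent from naïve-like lines and at 7.31 and 10.7 FPKM in primed lines, CDX2, and PRRX1, which fell by 2.89. TUBB3, CDX2 and PRRX1 were not called with any 1 of the 4 ESC lines left out, FABP7 without either primed line, and PAX6 and ZIC1 without primed line 1.

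Of 26 hypoblast and endoderm genes tested, 16 were higher and none was lower in primed ESCs, with a median of 2.79, or 2.01 with absent genes at their bound. They included LAMA1 (2.29), LAMB1 (2.87), NID2 (2.71), COL4A1 and COL4A2, which encode proteins of the basement membrane, and DAB2 (3.63), an endocytic adaptor on chromosome 16. GATA4, SOX17 and HNF4A, which define the lineage, stayed near absence in ESCs, while GATA6 and FOXA1 were read in both types. GATA4 had 2 counts at most in any ESC line against 188 to 239 FPKM in pXEN lines, and GATA6 was not called (12.1 FPKM in both naïve-like lines, 8.08 and 9.84 FPKM in primed lines) but was called lower without pXEN line 2 (−0.44). SOX17 and HNF4A were higher in primed ESCs at levels of 0.790 and 0.317 and of 0.217 and 0.141 FPKM, against 263 to 334 and 211 to 277 FPKM in pXEN lines. FOXA1 was higher at 49.5 and 47.2 against 12.8 and 14.1 FPKM (1.83, adjusted p = 5.05e-05), with 233 FPKM on average in pXEN lines.

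Of 18 trophectoderm and amnion genes tested, 10 were higher and 2 lower in primed ESCs (median 2.39). The keratins held the highest levels, KRT18 with 0.117 and 0.546 against 708 and 795 FPKM (11.12 ± 0.38, adjusted p = 3.78e-06). CDX2 and GATA3, which define the lineage, were higher but low (0 in both naïve-like lines against 0.855 and 1.55 FPKM, and 0.201 and 0.886 against 3.35 and 2.46 FPKM), and ELF5 had no counts. TFAP2B, a paralog of TFAP2A and TFAP2C, was lower in primed ESCs, from 47.3 and 56.5 to 0.0561 and 0.946 FPKM (−6.66, adjusted p = 0.000167), while TFAP2A rose by 2.37 to 0.897 and 2.54 FPKM. CDX2 was not called with any 1 of the 4 ESC lines left out, GATA3 without naïve-like line 1 or either primed line, and TFAP2A without either naïve-like line or primed line 2.

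Both types were grown on mouse feeder cells, and markers of fibroblasts were read beside these groups. The summed FPKM of the 19 markers found was 153 and 202 in naïve-like lines and 241 and 291 in primed lines. Of the 17 markers tested, 6 rose in primed ESCs and 1 fell (median 1.90). DCN had no counts in naïve-like lines and 18.3 and 38.8 FPKM in primed lines, at least 167-fold higher (adjusted p = 0.00152). S100A4 and LOX rose by 4.54 and 2.50. The defining collagens COL1A1 (0 and 1.74 against 7.72 and 8.44 FPKM), COL1A2 and COL3A1 (at most 0.451 FPKM in any ESC line) were not called, and LUM and FAP had 1 count at most in any ESC line. With any 1 of the 4 ESC lines left out 3 markers were called higher, and LOX was not called, while without pXEN line 2 COL1A1 (3.16) and COL1A2 (1.61) were called higher. The part of feeder reads in the changes of matrix and mesenchymal genes was not tested.

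**Figure D4:**
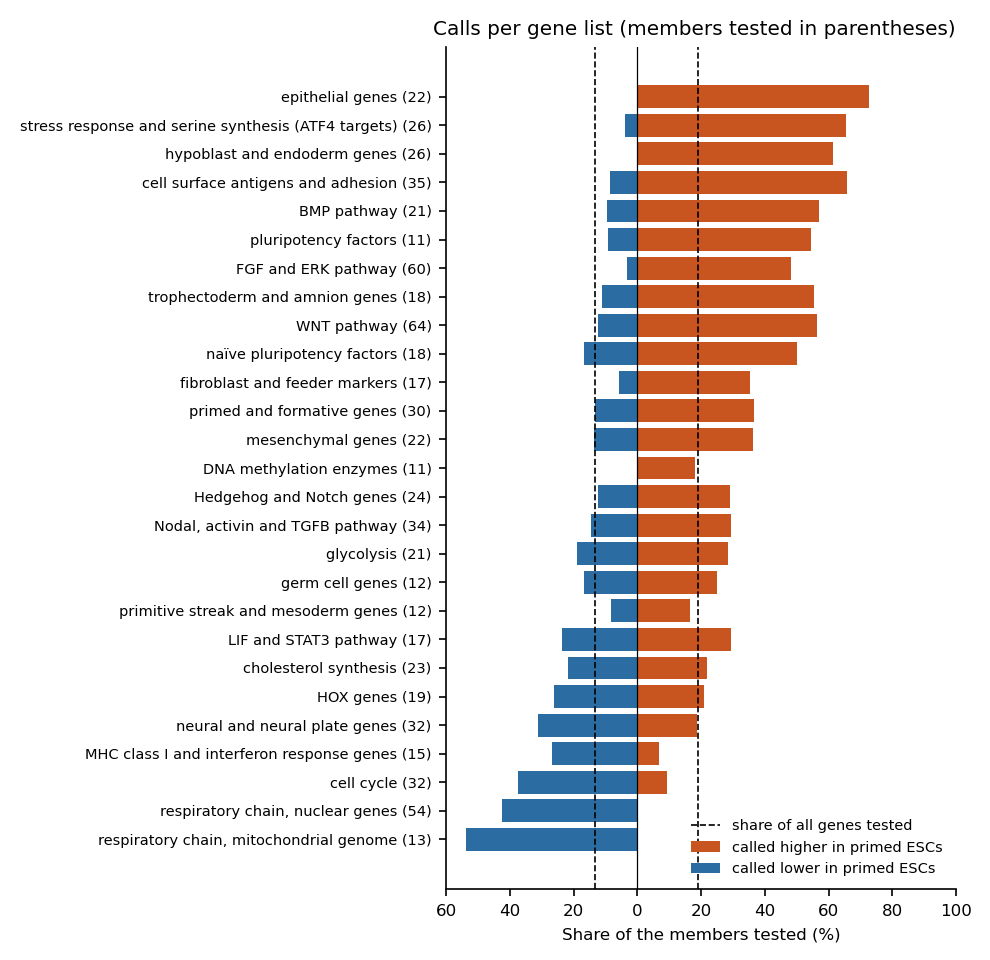
Share of the tested members of each gene list that was called higher (orange, to the right) or lower (blue, to the left) in primed ESCs, in percent, with the shares of all genes tested, 19.0% and 13.3%, as dashed lines. Epithelial genes, drawn apart from the mesenchymal genes of their list, reach furthest to the right among these bars, where each pathway is drawn whole, and genes of the respiratory chain have bars to the left only.

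Metabolic genes were described next. Of 26 tested genes of the stress response and serine synthesis driven by ATF4, 17 rose in primed ESCs and 1 fell (median 1.23). ATF4, the transcription factor itself, had 182 and 164 FPKM in naïve-like lines and 406 and 442 FPKM in primed lines (1.28, adjusted p = 0.000218), and its relative ATF5 rose from 9.37 and 9.57 to 165 and 179 FPKM (4.17). The enzymes of serine synthesis rose together: PHGDH, PSAT1 and PSPH by 1.58, 3.37 and 2.34, PSAT1 from 18.0 and 18.5 to 188 and 194 FPKM (adjusted p = 2.09e-05). CHAC1, which degrades glutathione, was at least 293-fold higher, and SLC7A11, the cystine transporter, had 3 or fewer counts in each naïve-like line and 12.4 and 15.1 FPKM in primed lines. ASNS rose by 1.15 and the tRNA synthetases WARS, AARS and GARS by 1.14, 1.18 and 0.90. ALDH1L2, a mitochondrial folate enzyme, fell by 2.47. DDIT3 (CHOP) was under 1 FPKM in all 4 lines and was not called.

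Part of the genes of the respiratory chain were lower in primed ESCs. The mitochondrial genome took 8.05% and 8.15% of the counts in naïve-like lines, 6.27% and 6.66% in primed lines and 4.65% to 6.41% in pXEN lines. Of its 13 protein-coding genes, 7 were lower and none was higher, with a median of −0.68. MT-ND2 and MT-ND3, subunits of complex I, fell by 0.75 (from 4043 and 4108 to 2355 and 2550 FPKM, adjusted p = 0.0206) and 0.79 (adjusted p = 0.00113). MT-CO1, a subunit of complex IV, was not called (12940 and 12950 against 13390 and 14890 FPKM), so that members of 1 genome did not move as 1. Of 54 nuclear genes of the chain, 23 were lower and none was higher, with a median of −0.41. NDUFB9 and NDUFV1 of complex I (−1.02 and −0.79), SDHA of complex II (−0.80), UQCRFS1 of complex III (−0.94) and ATP5G3 of the ATP synthase (−0.74) were among them. The count of nuclear genes was 5 and 10 without naïve-like line 1 and 2, 4 and 8 without primed line 1 and 2 and 38 without pXEN line 2, and that of mitochondrial genes was 4 without naïve-like line 2, 3 and 4 without primed line 1 and 2 and 12 without pXEN line 2. The differences were small, and the widest of a member was that of NDUFA6 of complex I (−1.50). MT-ND2 was not called with any 1 of the 4 ESC lines left out, nor ATP5G3 without primed line 1.

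Of 21 glycolysis genes tested, 6 were higher and 4 lower in primed ESCs, not far from the 19.0% and 13.3% of all genes. The glucose transporters SLC2A1 and SLC2A3 rose from 7.18 and 8.54 to 73.0 and 90.0 FPKM (3.36, adjusted p = 1.02e-05) and from 74.8 and 69.8 to 247 and 273 FPKM (1.83). ENO2, the neuronal enolase, rose by 6.47 and PFKFB3 by 3.05. HK2 and LDHA were not called, and PFKM, PFKL, PDK1 and GAPDH fell by 0.98, 0.59, 0.84 and 0.34. PFKL and GAPDH were not called with any 1 of the 4 ESC lines left out, PDK1 without naïve-like line 2 or either primed line, and PFKM without primed line 2.

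Of 32 cell cycle genes tested, 3 were higher and 12 lower in primed ESCs (median −0.39). The largest difference was that of the locus of cyclin-dependent kinase inhibitors on chromosome 1. CDKN2A (p16 and ARF) had 173 and 167 FPKM in naïve-like lines and 0.943 and 3.09 FPKM in primed lines (−6.37 ± 0.45, adjusted p = 5.68e-05), and CDKN2B (p15) 5.11 and 8.91 FPKM against no counts, at least 13.9-fold lower. CDKN1A (p21) varied between lines of a type, at 45.2 and 5.24 FPKM in naïve-like and 31.4 and 14.2 FPKM in primed lines, and was not called. CCND1 (cyclin D1) rose by 1.58 and CDK6 by 1.25, while CCNE1 (cyclin E1) and PCNA fell by 1.06 and 0.67. Without naïve-like line 1 or 2 the lower genes numbered 4 and 3, and without primed line 1 or 2 they numbered 3 and 4, and 1 gene was higher without naïve-like line 1 or either primed line. CCND1 and CDKN2B were not called with any 1 of the 4 ESC lines left out, nor CCNE1 without either naïve-like line or primed line 1.

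By chromosome, 1 autosome stood apart. On chromosome 16, 39 of 298 genes tested were higher and 113 lower in primed ESCs, which is 51.0% called, with a median log2 fold change of −0.50. The medians of the other autosomes lay between −0.10 and 0.09, and 22.7% to 36.6% of the genes of the other autosomes, chromosome X and unplaced sequences were called. In each of the 4 pairings of a primed with a naïve-like line the median of chromosome 16 lay between −0.48 and −0.38. Over 6 consecutive segments of about 50 genes along the chromosome the median ran from −0.69 to −0.27, so the decrease was not limited to 1 region. Relative to the pXEN lines, the median of the chromosome was 0.55 and 0.69 in naïve-like lines and 0.07 and 0.09 in primed lines. Chromosome number was not measured here. With the genes of chromosome 16 left out, 3269 genes were higher and 2200 lower.

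**Figure D5:**
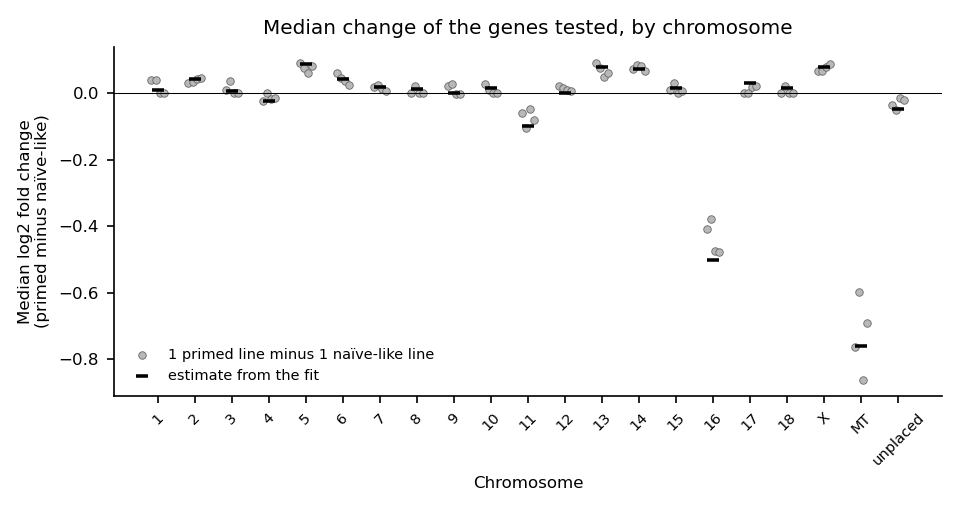
Median log2 fold change (primed minus naïve-like) of the genes tested on each chromosome; black bars are the estimates of the fit and grey points the 4 pairings of 1 primed with 1 naïve-like line. Chromosome 16 at −0.50 and the mitochondrial genome (MT) at −0.76 lie below all others, which are within 0.10 of 0.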

How the data were processed

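RNA-seq of rRNA-depleted, directional libraries from 7 porcine lines was analysed. Per the labels and the submitters' processing notes, reads were aligned with HISAT2 2.0.5 to Sscrofa10.2 and assigned with featureCounts 1.5.0-p3, and the notes also name edgeR 3.22.5. The authors deposited raw counts per gene, and deposited FPKM values made from them. Whether counting used strand is not given in the sources used here, so reads of overlapping genes may be shared.

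Counts were tested with edgeR 4.0.16 (R 4.3.3): TMM scaling, filterByExpr, 1 model of all 7 libraries, the quasi-likelihood test of primed minus naïve-like, and Benjamini-Hochberg adjustment, with 0.05 as threshold. FPKM values gave the levels and entered the limma alternatives. A gene with no counts in either line of a type was given a lower bound against 3 counts per library, and one with 1 to 3 counts a ratio of pooled counts with its exact binomial 95% interval.

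Genes were named by 2 rules among called genes with a symbol. One took the 10 largest changes per direction among well-read genes that exceeded 3 counts in every ESC line. Well-read means a mean log2 CPM of 5 or above over all 7 libraries. The other took the 8 per direction with the highest counts among genes at 3 or fewer counts in one type. Some genes that these rules or lists hold are not reported here. In each of 27 gene lists further members were named after their values were seen. The comparison, its markers and the lists were chosen with earlier results of these data known. Of 858 list symbols 744 were found, and 6 symbols were left out because their identifier now carries the name of another gene. Alternatives were RLE and upper-quartile scaling, DESeq2 1.42.0, limma 3.58.1 on log2(FPKM + 0.1) and log2(FPKM + 1), other count filters, Ensembl genes alone, ESC libraries alone, a replicate block and each ESC line left out. Leaving out pXEN line 2 and leaving out chromosome 16 were added after seeing the data. Intervals and bounds cover counting error only.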

Additional observations from a re-analysis of the deposited data

How the results depend on the processing

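With naïve-like line 1 or 2 or primed line 1 or 2 left out, the genes called numbered 2965 to 3712, those higher in primed ESCs 2037 to 2371 and those lower 928 to 1341, against 5621, 3308 and 2313 with all libraries. These fits leave 1 type with a single line. The genes called at least 4-fold apart numbered 1627 to 1903 in these fits, against 2363, but 1036 with limma on log2(FPKM + 1), which shrinks low genes, and 810 with a minimum of 10 counts in every ESC line, which leaves out the genes absent from 1 type. Under that minimum the WNT ligands called higher numbered 3 in place of 13. Other settings gave 4137 to 7566 called genes, the most without pXEN line 2, with 4213 higher and 3353 lower. Upper-quartile scaling gave 3049 higher and 2882 lower genes, or 51.4% higher against 58.9%, with a median of all genes of −0.06.

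Lines of the 2 types that share a number were not treated as pairs in the comparison. The correlation of their deviations was −0.00892, which cannot show whether they share an origin. With a replicate block on the 4 ESC libraries 6836 genes were called, 3831 of them higher, and OSMR alone of the called genes named in the text lost its call. No called gene named in the text changed direction under any of the alternatives run. With all libraries kept, DESeq2 did not call 7SK, KLF4, PRRX1, TDRD1 or TUBB3, limma on log2(FPKM + 0.1) did not call FABP7, GAPDH, NDUFA6, OSMR, PFKL, TERT, TUBB3 or WNT7A, and limma on log2(FPKM + 1) did not call GAPDH, HNF4A, NANOG, OSMR, PFKL, TDRD1 or TERT. KLF4, PRRX1 and GAPDH were lost with no filter, GAPDH and TERT with the minimum of 10 counts, TERT with RLE scaling, and TERT and WNT7A with Ensembl genes alone. In the 4 ESC libraries alone and with the replicate block, COL1A1, COL1A2, COL3A1, FOS, JUNB, KLB, FZD7, GATA6, HK2, LDHA, HOXD4, LEF1, LIFR, SFRP2, SOX2 and ZIC2, uncalled in the comparison, were called in the same direction, as were FZD2 and SKIL with the block, and FZD7 and LIFR were called by DESeq2 and with the minimum of 10 counts, SKIL by DESeq2 and FZD7 with no filter. Among uncalled genes, CDKN1A (−0.16) was at 0.452 and 0.389 with limma on log2(FPKM + 0.1) and log2(FPKM + 1) and at 0.302 with the replicate block, and GSK3B (−0.02) at 0.009 and 0.008 with limma and 0.007 with the minimum of 10 counts. With 1 line left out, CDH2 ran from −0.276 to 0.071, CDKN1A from −0.997 to 2.104, EGR1 from −0.773 to 0.658, GATA4 from −3.141 to 2.2 and GSK3B from −0.239 to 0.227. The median of chromosome 16 ran from −0.59 with upper-quartile scaling to −0.40 with limma on log2(FPKM + 1). With 2 lines per type, the count of calls rests on the spread between single libraries, and at these depths a gene at 3 counts or fewer cannot be told from absence.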

Other observations

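HOX genes pattern the body axis. Of 19 tested, 4 were higher and 5 lower in primed ESCs, beside 19.0% and 13.3% of all genes, and the count lower was 3, 2, 3 and 2 without naïve-like line 1, naïve-like line 2, primed line 1 and primed line 2. With a minimum of 10 counts in every ESC line none was higher and 2 were lower. HOXB2 and HOXB3, which pattern the hindbrain, had 8.07 and 9.42 against 0.149 and 0.698 FPKM (−4.33, adjusted p = 0.0126) and 5.59 and 6.73 against 0.305 and 1.14 FPKM (−3.07) by edgeR. HOXA7 rose from 0.133 and 0.138 to 2.01 and 1.07 FPKM (3.46). HOXD4 and HOXD8 were read at 16 FPKM or more in all 4 lines and were not called, but HOXD4 was called lower without pXEN line 2 (−0.85).

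Of 9 Hedgehog genes tested, 3 were higher and 1 was lower, and of 15 Notch genes, 4 were higher and 2 lower, beside 19.0% and 13.3% of all genes. PTCH1, the receptor and a target of Hedgehog signals, fell from 16.7 and 17.6 to 6.11 and 5.90 FPKM (−1.53, edgeR adjusted p = 0.000531), while its coreceptors BOC and CDON rose by 1.25 and 1.17. HES1, a target of Notch, rose by 1.72 to 45.8 and 44.9 FPKM, and DLL1, a Notch ligand, fell from 8.80 and 14.2 to 3.05 and 2.47 FPKM (−2.07). Without naïve-like line 1 or primed line 1 the higher Hedgehog genes numbered 1, without pXEN line 2 they numbered 6, and without primed line 1 the higher Notch genes numbered 2. The lower Notch genes numbered 1 without naïve-like line 2 or either primed line.

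The enzymes of cholesterol synthesis had 5 members higher and 5 lower of 23 tested, beside 19.0% and 13.3% of all genes. FDPS fell from 206 and 173 to 91.7 and 94.1 FPKM (−1.04, edgeR adjusted p = 0.00106), and FDFT1, the next enzyme of the path, rose from 49.2 and 46.8 to 89.7 and 85.8 FPKM (0.86). The higher members numbered 3 without naïve-like line 2 or primed line 1 and 8 without pXEN line 2, and the lower ones 2 without naïve-like line 1 or either primed line.

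Of 12 germ cell genes tested, 3 were higher (TFAP2C, KIT and TDRD1) and 2 lower (TDRD12, which overlaps ANKRD27, and TEX15), beside 19.0% and 13.3% of all genes. DAZL had no counts and DDX4 1 count in the ESC lines. Of 15 genes of MHC class I and the interferon response, 1 was higher and 4 were lower, which is 33.3% called beside 32.2% of all genes. IRF1 fell from 11.8 and 8.57 to 2.26 and 2.25 FPKM (−2.19, edgeR adjusted p = 0.00147), whereas the interferon target ISG15 was not called.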
